A study of Mus musculus with 6 samples.

Results

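The collagen chain genes measured here were the 44 protein-coding genes of the deposited count table whose symbols are Col, a type number, the letter a and a chain number, out of 43629 mouse genes in the table. The tissue was B16F10 melanoma, a transplantable mouse line, grown under the skin of 8-week-old female C57BL/6J mice and treated daily until control tumours reached 2000 mm3. Each of the 6 treatments is represented by 1 library from tumours pooled before RNA extraction, so no pair of pools has a replicate check. The treatments were DMSO with anti-PD-1 (an antibody against an inhibitory receptor of T cells), AZD5363 with MK1775 and control IgG (inhibitors of the kinases AKT and WEE1), AZD5363 with MK1775 and anti-PD-1, KS100 with control IgG (an inhibitor of aldehyde dehydrogenases), KS100 with anti-PD-1, and DMSO with control IgG, called the control pool. They are called anti-PD-1, AZD/MK, AZD/MK/PD-1, KS100, KS100/PD-1 and control for short. How many tumours went into a pool is not given in the sources used here, and all animals carried the same tumour line in the same strain.

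Collagens are triple helices of 3 alpha chains, each chain encoded by its own gene. Fibrillar types I, III and V are secreted mainly by fibroblasts and give tissue its tensile strength, type IV forms the sheet of basement membranes around vessels, and type VI forms beaded filaments near cells. In a grafted tumour they come largely from host stroma, and in bulk RNA fewer cells of a type and less RNA per cell cannot be told apart. The libraries read the 3′ ends of transcripts, so a count does not scale with gene length. For that reason counts were not divided by length, and 2 genes are compared only through the ratio of their counts across pools.

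The pools differed in depth, with 1002088 counts in anti-PD-1 tumours, 26639 in the AZD/MK pool, 338474 in the AZD/MK/PD-1 pool, 44748 in the KS100 pool, 25521 in the KS100/PD-1 pool and 1591673 in the control pool. A count of 0 allows a level of up to 3 counts. That limit was 2.99 CPM (a gene's counts scaled to its library's total) in anti-PD-1 tumours, 112.6 CPM in the AZD/MK pool, 117.6 CPM in the KS100/PD-1 pool and 1.89 CPM in the control pool. Mitochondrial genes and the gene Gm42418, which overlaps a ribosomal RNA repeat, took 1.29% of the anti-PD-1 counts, 13.8% to 32.7% of the counts of the 4 inhibitor pools and 1.89% of control counts. A background was gauged from 8744 protein-coding genes with 0 counts in anti-PD-1 as in control tumours, as counts per megabase of exon. This rate takes background counts, unlike those of transcript ends, to scale with exon length, which was not checked. Carried over to the 0.348 Mb of collagen exons, it gives 2.47 expected collagen counts in the AZD/MK pool, 15.7 in the AZD/MK/PD-1 pool, 25.8 with KS100 and 30.1 with KS100/PD-1. All intervals are 95% exact intervals and cover counting error only. The melanocyte genes Dct, Pmel, Tyrp1, Mlana, Mitf, Tyr and Sox10 were detected in anti-PD-1 and control tumours, Tyr with 24 and 53 counts, and their sum ran from 2390 CPM in the KS100/PD-1 pool to 20320 CPM in the control pool. The defining markers of the family, Col1a1, Col1a2 and Col3a1, were detected in every pool except that Col1a2 and Col3a1 were at 0 in the AZD/MK pool.

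Collagen transcripts took a larger share of counts in anti-PD-1 tumours than in control. The 44 genes together held 2402 counts in anti-PD-1 tumours, which is 0.240% (0.230 to 0.250). They held 6 counts in the AZD/MK pool, 0.0225% (0.00827 to 0.0490), and 222 in the AZD/MK/PD-1 pool, 0.0656% (0.0573 to 0.0748). The KS100 pool held 55, or 0.123% (0.0926 to 0.160), the KS100/PD-1 pool 45, or 0.176% (0.129 to 0.236), and the control pool 661, or 0.0415% (0.0384 to 0.0448). The intervals of anti-PD-1 and control tumours lie far apart, while that of the KS100/PD-1 pool overlaps those of anti-PD-1 tumours and the KS100 pool, and that of the shallow AZD/MK pool spans the control value. Of the 44 genes, 31 were detected in anti-PD-1 tumours, 3 in the AZD/MK pool, 23 in the AZD/MK/PD-1 pool, 21 in the KS100 pool, 22 in the KS100/PD-1 pool and 29 in the control pool.

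**Figure D1:**
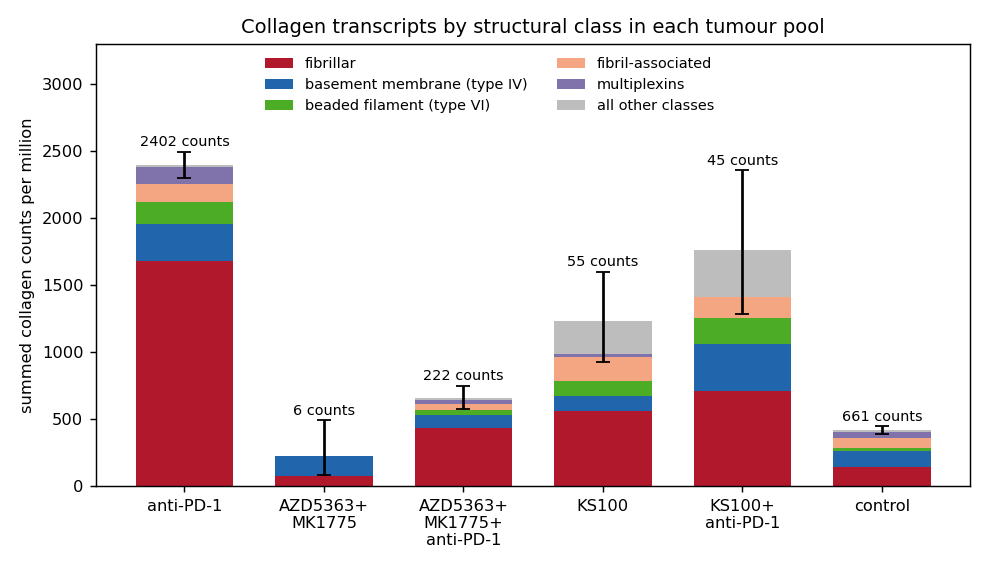
Summed CPM of the 44 collagen genes in each pool, stacked by structural class, with the 95% exact interval of the total and the collagen count above each bar. The anti-PD-1 bar is mostly fibrillar, at 70.2% of its collagen counts against 33.6% in the control pool, and the bars of the inhibitor pools other than AZD/MK/PD-1 rest on 6 to 55 counts.

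Of the 44 genes, 39 had a count in some pool, 14 had at least 20 counts in at least 1 pool, 3 were detected in every pool (Col1a1, Col4a1 and Col4a4) and 5 were at 0 throughout (Col4a6, Col6a5, Col6a6, Col9a2 and Col24a1). The 25 detected genes that never reached 20 counts held 90 counts together in anti-PD-1 tumours, 0 in the AZD/MK pool, 20 in the AZD/MK/PD-1 pool, 23 in the KS100 pool, 22 in the KS100/PD-1 pool and 64 in the control pool. Among them were chains of cartilage (Col2a1, Col9a1, Col11a1) and of skin attachment (Col7a1 and Col17a1, 1 count each), and the highest single count was 15, for Col6a2 in anti-PD-1 tumours.

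The upstream sequences of fibrillar and type VI genes that were higher in anti-PD-1 tumours are shown because these genes moved in the same direction there. RefSeq windows of the 250 bases before the annotated start were read on GRCm38.p6 for 35 of the 44 genes, and only windows free of annotated exons are printed. The windows of Col1a1, Col1a2 and Col5a2, which were also higher, are not printed here. Capitals mark the CCAAT box (letters CCAAT), the TATA box (letters TATAAA) and the GC box (letters GGGCGG), searched on both strands with overlaps allowed.
Col3a1, chr1:45311288-45311537, plus strand: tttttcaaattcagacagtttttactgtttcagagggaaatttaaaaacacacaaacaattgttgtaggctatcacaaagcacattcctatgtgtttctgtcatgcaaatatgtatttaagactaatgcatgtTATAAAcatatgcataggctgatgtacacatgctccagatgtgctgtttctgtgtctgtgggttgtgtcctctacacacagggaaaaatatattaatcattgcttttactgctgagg
Col5a1, chr2:27886175-27886424, plus strand: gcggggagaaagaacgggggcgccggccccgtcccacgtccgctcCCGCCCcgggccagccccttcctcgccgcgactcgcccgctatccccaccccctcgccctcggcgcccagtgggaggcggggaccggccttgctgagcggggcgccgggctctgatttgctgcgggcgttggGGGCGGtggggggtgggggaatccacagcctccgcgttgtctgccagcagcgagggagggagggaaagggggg
Col5a3, chr9:20815068-20815317, minus strand: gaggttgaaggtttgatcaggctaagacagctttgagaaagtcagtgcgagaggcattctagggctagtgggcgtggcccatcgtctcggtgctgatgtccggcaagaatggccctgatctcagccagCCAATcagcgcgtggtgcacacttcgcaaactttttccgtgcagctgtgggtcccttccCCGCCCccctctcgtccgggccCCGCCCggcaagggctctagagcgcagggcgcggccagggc
Col6a3, chr1:90843972-90844221, minus strand: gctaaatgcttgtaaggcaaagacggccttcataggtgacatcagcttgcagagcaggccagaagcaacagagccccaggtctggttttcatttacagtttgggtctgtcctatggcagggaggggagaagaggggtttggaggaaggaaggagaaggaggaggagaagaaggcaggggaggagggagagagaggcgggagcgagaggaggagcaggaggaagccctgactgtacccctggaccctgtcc
No motif is found in all 4 printed windows. That of Col3a1 has 1 TATA box, that of Col5a1 has 2 GC boxes, that of Col5a3 has 1 CCAAT box and 2 GC boxes, and that of Col6a3 has none of the 3. Among all 32851 mouse windows of this length, 33.8% hold a CCAAT box, 12.4% a TATA box and 32.7% a GC box, and of the 38 windows of collagen genes 13 hold the first, 5 a TATA box and 22 a GC box. A match describes letters only.

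The comparison of anti-PD-1 with control asks how collagen differed between these unreplicated pools, and cannot by itself say what the antibody did. Collagen counts as a sum were 5.75-fold those of control (5.28 to 6.28) after TMM normalisation, which scales pools to the bulk of genes. Without the 3 genes with most counts, Col1a1, Col1a2 and Col4a1, the sum was 2.998-fold control (2.66 to 3.38). The comparisons with control given further on share this control pool. Calls for single genes rest on the size of the ratio, without a test. This rule of size asked for at least 20 counts in either pool, a ratio of at least 2 and a 95% interval wholly beyond 1.5-fold. By that rule 12 of the 14 collagen genes with enough counts were higher and none lower, where 2.91% of all 8119 genes with enough counts were higher and 1.87% lower. Of the 14, 5 had enough counts only through anti-PD-1 tumours. Among the 9 with at least 20 counts in control, 7 were higher, against 1.79% of the 7943 genes with that many control counts. Their median log2 ratio was 1.70, against 0.018 over those 7943 genes.

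The type I genes, which with type III make the thick fibrils of skin, scar and tumour stroma, differed most in CPM between anti-PD-1 tumours and control. Col1a1 (chr11:94936224-94953042, plus strand of GRCm38) had 1042 counts in anti-PD-1 tumours, 2 in the AZD/MK pool, 28 in the AZD/MK/PD-1 pool, 3 in the KS100 pool, 6 in the KS100/PD-1 pool and 106 in the control pool. That is 1040 CPM in anti-PD-1 tumours, 67.0 to 235 CPM in the inhibitor pools and 66.6 CPM in the control pool. Anti-PD-1 tumours stand alone, their interval of 978 to 1105 CPM lying above those of every other pool. The ratio of anti-PD-1 to control was 15.6 (12.7 to 19.2). Col1a2, the partner chain of type I (chr6:4504814-4541544, plus strand), had 367 counts in anti-PD-1 tumours, 0 in the AZD/MK pool, 79 in the AZD/MK/PD-1 pool, 11 in the KS100 pool, 2 in the KS100/PD-1 pool and 40 in the control pool. The anti-PD-1, AZD/MK/PD-1 and KS100 pools were high for this chain, at 366.2, 233 and 246 CPM against 25.1 CPM in control. Its ratio of anti-PD-1 to control was 14.5 (10.5 to 20.7), so the type I chains were higher to a like extent. Col3a1 (chr1:45311538-45349706, plus strand) had 146 counts in anti-PD-1 tumours, 0 in the AZD/MK pool, 31 in the AZD/MK/PD-1 pool, 3 in each KS100 pool and 29 in the control pool, a ratio of 7.97 (5.32 to 12.3) for anti-PD-1 over control. Its interval does not overlap that of Col1a1.

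Type V chains, which join type I fibrils and limit their width, were also higher in anti-PD-1 tumours. Col5a2 had 48 counts there and 8 in control, a ratio of 9.50 (4.45 to 23.3), Col5a1 had 39 and 15, a ratio of 4.12 (2.22 to 8.04), and Col5a3 had 29 and 13, a ratio of 3.53 (1.78 to 7.40). In the 4 inhibitor pools these 3 genes had at most 5 counts. Col14a1, a fibril-associated collagen, had 28 counts in anti-PD-1 tumours and 8 in control, a ratio of 5.54 (2.46 to 14.1). All 4, and Col18a1 below, reached 20 counts only in anti-PD-1 tumours, so the rule could call them only if they were high there.

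Basement membrane and filament chains were higher too. Col4a1, the main chain of vessel basement membranes together with Col4a2, had 190 counts in anti-PD-1 tumours, 2 in the AZD/MK pool, 18 in the AZD/MK/PD-1 pool, 4 in the KS100 pool, 2 in the KS100/PD-1 pool and 91 in control, and anti-PD-1 over control was 3.31 (2.56 to 4.29). Col4a2 had 52, 0, 5, 0, 3 and 25 counts in the same order of pools, a ratio of 3.29 (2.01 to 5.54). Col6a3, the long chain of type VI filaments, had 140, 0, 9, 5, 4 and 32 counts in that order, a ratio of 6.93 (4.69 to 10.5). Of the multiplexins, which lie in basement membranes and carry antiangiogenic fragments at their ends, Col18a1 had 32 counts against 3 in control, 16.9-fold (5.28 to 86.2). Col15a1 had 93 against 70, 2.103-fold (1.53 to 2.91), just past the rule. With DESeq2 size factors in place of TMM it was 2.05 and no longer past it.

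Not every collagen was higher with anti-PD-1. Col16a1, a fibril-associated chain, had 81 counts in anti-PD-1 tumours and 98 in the control pool, a ratio of 1.31 (0.963 to 1.77), with 0, 6, 2 and 0 counts in the AZD/MK, AZD/MK/PD-1, KS100 and KS100/PD-1 pools. Col4a4, a type IV chain known from the kidney filter, had 25 counts in anti-PD-1 tumours and 59 in the control pool, a ratio of 0.671 (0.403 to 1.09). These intervals lie below those of Col1a1, Col1a2, Col3a1 and Col6a3. Col10a1, a chain of hypertrophic cartilage, had 1 count in anti-PD-1 tumours and 11 in control, and Col4a5 had 7 and 13, both too few for the rule. The fibrillar class as a sum was 12.0-fold control (10.4 to 13.9), type VI 6.29-fold (4.46 to 9.05), type IV 2.31-fold (1.91 to 2.79) and the fibril-associated class 1.84-fold (1.43 to 2.37).

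**Figure D2:**
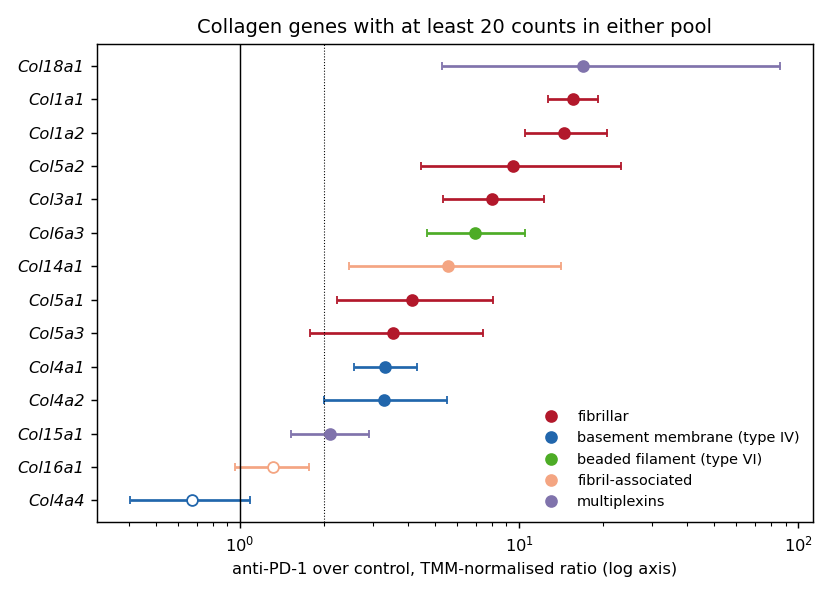
Ratio of anti-PD-1 to control (log axis) for the 14 collagen genes with at least 20 counts in either pool, with 95% exact intervals, filled where past the rule of size and open where not. Col18a1, Col1a1 and Col1a2 sit at 14.5 to 16.9, while Col16a1 and Col4a4 sit at 1.31 and 0.671.

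The enzymes and chaperones that collagen chains need were not higher to the same extent. Of 27 collagen processing genes 18 had enough counts. Of these, 1 was higher and 0 were lower, where 2.91% of all genes were higher and 1.87% lower. The sum of the 27 was at 1.14 (1.09 to 1.20). P4hb, a subunit of prolyl hydroxylase, had 619 counts in anti-PD-1 tumours and 918 in control, a ratio of 1.07 (0.962 to 1.18). Serpinh1, the collagen chaperone HSP47, had 444 and 956, a ratio of 0.735 (0.655 to 0.824), and the lysyl hydroxylase gene Plod2 had 194 and 288, a ratio of 1.07 (0.884 to 1.28). Mia2, which acts in procollagen export, had 255 and 283, a ratio of 1.43 (1.20 to 1.70). The 1 gene past the rule, named after its value was seen, was Sec24d, a coat protein gene for procollagen export, at 2.45 (1.93 to 3.12). Of 5 cross-linking genes 2 had enough counts. Lox, which cross-links collagen outside the cell, had 96 counts in anti-PD-1 tumours, 0 in each inhibitor pool and 5 in control, 30.4-fold control (12.6 to 95.7), with enough counts only through anti-PD-1 tumours. Loxl3 had 29 and 38, a ratio of 1.21 (0.719 to 2.01).

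Genes of several other stromal and host cell types were higher too. The 8 cartilage and bone genes were not, with a sum at 0.995-fold control (0.556 to 1.74). The 13 fibroblast genes other than collagens summed to 2.09-fold control (1.92 to 2.27). Of these, 2 had at least 20 counts in control, the filament gene Vim at 1.21-fold (1.07 to 1.35), not past the rule, and Fn1 (fibronectin) at 3.27-fold (2.83 to 3.79), past it. The other 5 with enough counts, among them the receptor gene Pdgfrb at 4.66-fold (2.69 to 8.46), had them only through anti-PD-1 tumours, so the rule could call them only if they were high there. The 9 pericyte and smooth muscle genes summed to 2.95-fold control (2.54 to 3.45), the 10 endothelial genes to 1.83-fold (1.61 to 2.08), the 9 macrophage genes to 3.33-fold (2.75 to 4.05) and the 6 fat cell genes to 2.95-fold (2.41 to 3.63). The fat cell sum was mostly Fabp4, with 223 counts in anti-PD-1 tumours and 145 in control. Car3 had 33 and 2, Cfd 17 and 0 and Adipoq 3 and 1, while Lep and Plin1 had 0 in both. The 10 skeletal muscle genes held 759 CPM in anti-PD-1 tumours and 60.3 CPM in control, 12.6-fold (10.1 to 15.7). The muscle actin gene Acta1, the 1 member with 20 control counts, was at 11.02-fold (8.22 to 15.0). The 7 melanocyte genes summed to 0.851-fold (0.835 to 0.866) with none past the rule, and the 9 keratinocyte genes held 2 counts in anti-PD-1 tumours and 1 in control. The part of these cell types in the collagen values was not tested.

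Whether the antibody moved collagens across arms was asked with edgeR's quasi-likelihood test with terms for the inhibitor arm and the antibody, fitted to all 6 pools, in which pools of other arms serve as replicates. Only 7 of the 44 genes passed its filter on low counts. None of the 7 passed the Benjamini-Hochberg adjusted threshold for the antibody, where 0.143% of all 4912 genes fitted were called, and 4 of 7 had an unadjusted p under 0.05, as had 2.08% of all. DESeq2 gave the same counts of 0 and 4 collagen genes. On simulated data the edgeR fit recovered 44 of 100 genes with a log2 change of 3 and 20 of 100 with 2, so changes of this size can go uncalled. Col1a1 had a log2 change of 2.77 ± 0.89 (SE, edgeR adjusted p = 0.52). The change was 2.64 ± 0.91 for Col3a1 (edgeR adjusted p = 0.894), 2.51 ± 0.89 for Col1a2 (edgeR adjusted p = 0.9998) and 2.15 ± 0.94 for Col6a3 (edgeR adjusted p = 0.9998). The pools without antibody in the inhibitor arms are shallow, with 26639 and 44748 counts in all. With antibody over without, Col1a1 stood at 28 against 2 in the AZD/MK arm, a ratio of 1.87 (0.471 to 16.2), and at 6 against 3 in the KS100 arm, a ratio of 3.82 (0.816 to 23.6). Col1a2 stood at 79 against 0 in the AZD/MK arm, 3.52-fold higher with the 0 taken as 3 counts and no counting error for the 79. In the KS100 arm, however, Col1a2 stood at 2 against 11, 0.347 (0.0374 to 1.59). Fits without a single pool leave 1 pool in an arm, so only their log2 changes are given. Without the KS100 pool or without the KS100/PD-1 pool, Col1a2 was at 4.11 and 4.11. Both of these fits take the KS100 arm out of the antibody's change. Without the AZD/MK/PD-1 pool, Col1a1 was at 3.62 and Col1a2 at 2.3, and without the AZD/MK pool at 3.21 and 1.82. In the same way, leaving out a pool of the AZD/MK arm takes that arm out. Without the control pool Col1a1 and Col1a2 were lower, at 1.77 and 1.40, and without anti-PD-1 tumours at 1.78 and 1.41. These last values leave out the DMSO arm and rest on the inhibitor arms alone. A difference of the antibody's effect between arms was not tested. For AZD/MK and for KS100, edgeR called 0 of the same 7 genes, with 1.47% and 8.14% of all genes called, and 0 of 7 had an unadjusted p under 0.05 in either effect, as had 8.92% and 18.4% of all genes. DESeq2 also called none.

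**Figure D3:**
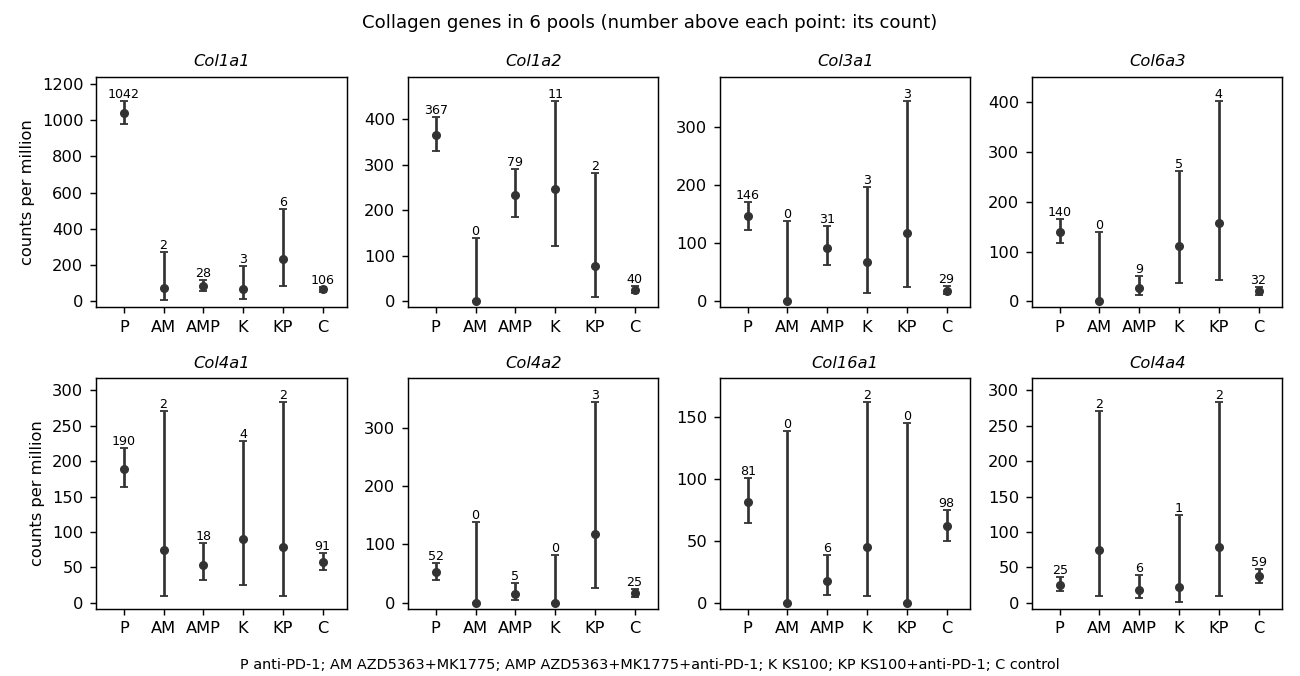
CPM with 95% exact Poisson intervals for 8 collagen genes in the 6 pools, with the count above each point (in the panels P is anti-PD-1, AM is AZD/MK, AMP is AZD/MK/PD-1, K and KP are KS100 without and with the antibody, and C is control). The intervals of AM, K and KP are wide because those pools are shallow, and Col1a2 but not Col1a1 is high in AMP and K, at 233 and 246 CPM.

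AZD/MK with anti-PD-1 was compared with control and with anti-PD-1 to ask how the pool of the combination differed from each. Collagens as a sum stood at 2.66-fold control (2.27 to 3.10) and at 0.462 of anti-PD-1 (0.401 to 0.531). TMM raised every log2 ratio of this pool to control by 0.75 over scaling by library totals, under which the sum was 1.58-fold control. Of 9 collagen genes with enough counts 2 were higher than in control and none lower, where 15.8% of all genes were higher and 7.11% lower. They were Col1a2, at 15.6-fold (10.6 to 23.5), and Col3a1, at 8.46-fold (4.93 to 14.6). With library totals they were at 9.29 and 5.03, still past the rule, and 1 of the 9 was then lower. Of all genes 7.51% were higher and 21.3% lower under that scaling. Col1a1, at 2.09-fold (1.33 to 3.20), was not past the rule, nor were Col4a1 at 1.57 (0.888 to 2.62) and Col6a3 at 2.23 (0.935 to 4.77). Against anti-PD-1 tumours 3 of 14 were lower, where 7.82% of all genes were lower and 14.5% higher. Col1a1 stood at 0.134 (0.0889 to 0.195) and Col6a3 at 0.322 (0.144 to 0.628). Col5a1, with 0 counts against 39, was 2.60-fold lower with the 0 taken as 3 counts and no counting error for the 39. Of the 14, only Col1a1, Col1a2 and Col3a1 also had 20 counts in the AZD/MK/PD-1 pool, so Col6a3 and Col5a1 had enough counts only through anti-PD-1 tumours, where they are high. With library totals, which lower every log2 ratio of this pair by 0.76, 7 of 14 were lower, where 24.7% of all genes were. Col1a2 and Col3a1 had ratios to anti-PD-1 of 1.08 (0.833 to 1.38) and 1.06 (0.696 to 1.57), and with library totals both were below 1, at 0.637 and 0.629.

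The chains of type I collagen thus parted in this pool, a comparison chosen after the values were seen. Col1a1 and Col1a2 had 1042 and 367 counts in anti-PD-1 tumours, 28 and 79 in the AZD/MK/PD-1 pool, and 106 and 40 in the control pool. Col1a1 made up 74.0% of both (71.6 to 76.2) in anti-PD-1 tumours, 26.2% (18.2 to 35.6) in the AZD/MK/PD-1 pool and 72.6% (64.6 to 79.7) in control. The KS100 pool, on 3 and 11 counts, was at 21.4% (4.66 to 50.8), and the KS100/PD-1 pool, on 6 and 2, at 75.0% (34.9 to 96.8). The ratio of Col1a1 to Col1a2 relative to control was 1.07 (0.711 to 1.59) in anti-PD-1 tumours, 0.135 (0.0730 to 0.244) in the AZD/MK/PD-1 pool and 0.105 (0.0178 to 0.423) in the KS100 pool. Such a ratio within a pool does not depend on how pools are scaled, and it shows unequal change, not which chain changed. Col3a1 went with Col1a2, at 31 against 79 counts in the AZD/MK/PD-1 pool, a ratio of 0.392, and 146 against 367 in anti-PD-1 tumours, 0.398, although control stood at 0.725. The expected background of the AZD/MK/PD-1 pool was 0.297 counts for Col1a1 and 0.562 for Col1a2. The annotation has another gene, Gm43921, overlapping Col1a2 on the same strand, but the deposited counts have no entry for it.

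By contrast, the chain genes of the main type IV collagen kept their proportion in the deep pools. Col4a1 and Col4a2 lie head to head on chromosome 8, with annotated spans that overlap by 22 bases at their starts (chr8:11198423-11312826 on the minus strand and chr8:11312805-11449287 on the plus strand). Col4a1 made up 78.5% of both (72.8 to 83.5) in anti-PD-1 tumours, 78.3% (56.3 to 92.5) in the AZD/MK/PD-1 pool and 78.5% (69.9 to 85.5) in control, although both genes were 3.29-fold to 3.31-fold higher with anti-PD-1. The ratio of Col4a1 to Col4a2 in anti-PD-1 tumours was 1.00 times that of control (0.559 to 1.77). Col4a4 had 25 counts in anti-PD-1 tumours and 59 in control, while Col4a3, whose span starts 71 bases beyond it on the other strand, had 0 in both, and the pair had 6 and 1 counts in the AZD/MK/PD-1 pool and 2 and 2 in the KS100/PD-1 pool. Col4a5 had 7 and 13, and its neighbour Col4a6 had 0 in every pool.

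**Figure D4:**
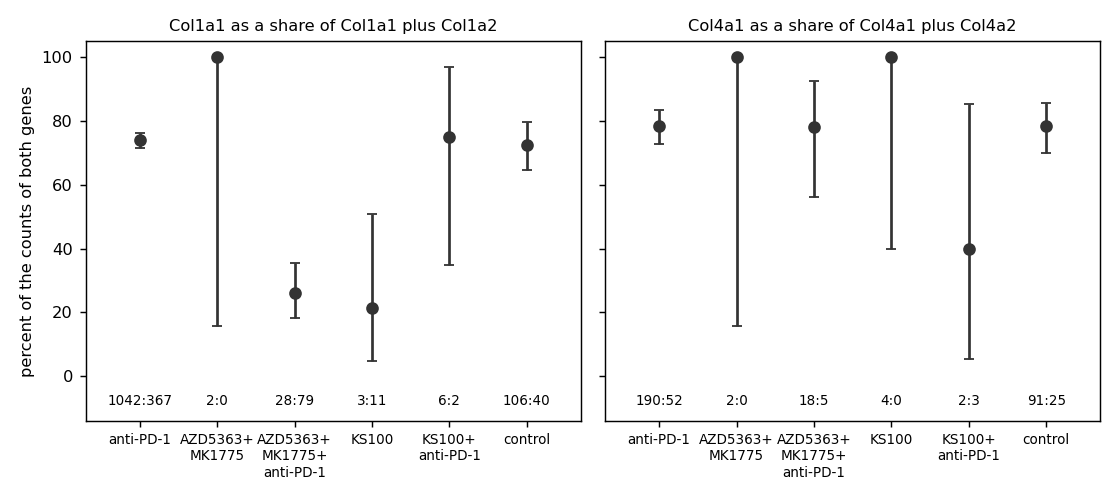
Share of Col1a1 in the counts of Col1a1 plus Col1a2 (left) and of Col4a1 in the counts of Col4a1 plus Col4a2 (right) in each pool, with 95% exact intervals and the counts of both genes beneath. The Col1a1 share is 26.2% in the AZD/MK/PD-1 pool against 72.6% in control, and the Col4a1 share is 78.3% against 78.5%.

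Skeletal muscle genes did not follow the collagens in the combination. Their sum was 8417 CPM in the AZD/MK/PD-1 pool, 759 CPM in anti-PD-1 tumours and 60.3 CPM in the control pool, while Col1a1 was at 82.7, 1040 and 66.6 CPM. The other fibroblast genes summed to 1.67-fold control (1.44 to 1.94), with none of 2 past the rule. Pericyte genes summed to 1.24-fold (0.872 to 1.73), endothelial genes to 1.25-fold (0.960 to 1.61) and macrophage genes to 5.99-fold (4.69 to 7.63). Collagen processing genes were at 1.00-fold (0.909 to 1.10), with 1 of 18 higher and 1 lower, where 15.8% of all genes were higher and 7.11% lower. Named after their values were seen, these were Mia3, which loads procollagen into carriers, at 3.45 (2.53 to 4.65), and P3h1, a prolyl 3-hydroxylase, with 1 count against 100 at 0.0792 (0.00198 to 0.451). Serpinh1 was at 0.546 (0.419 to 0.702) and Lox had 0 counts.

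**Figure D5:**
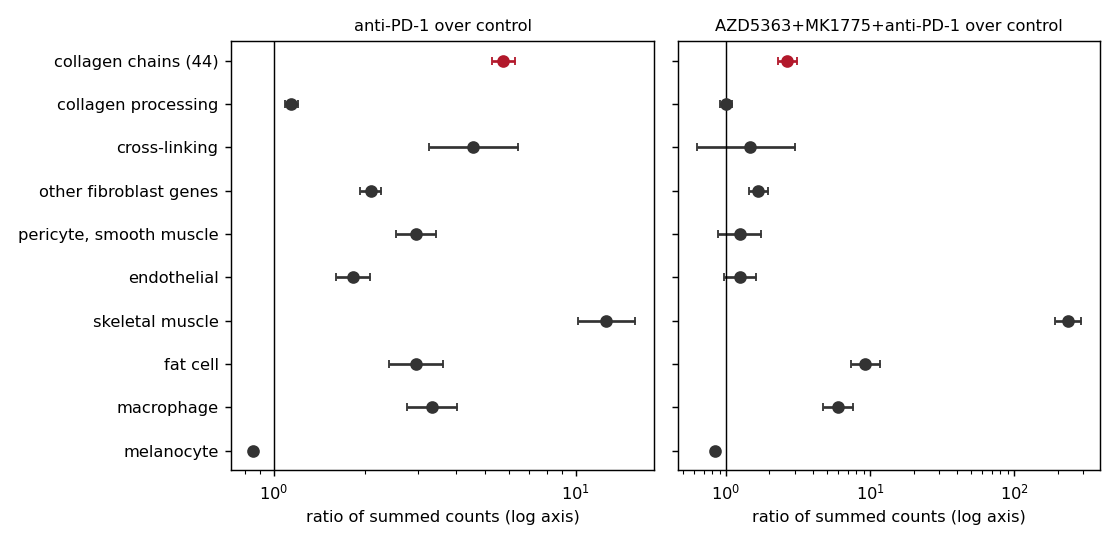
Ratio of summed counts (log axes, each panel with its own range) for the 44 collagen chains, in red, and 9 other gene lists, in anti-PD-1 over control (left) and AZD/MK/PD-1 over control (right), with 95% exact intervals. Skeletal muscle is at 12.6 and 235, whereas collagens are at 5.75 and 2.66 and collagen processing genes at 1.14 and 1.00. The fat cell point on the right rests mostly on Car3, with 153 of 173 counts, while Fabp4 of that list is at 1.04.

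AZD/MK without antibody gave too few counts to place the family. Its 6 collagen counts (2 each for Col1a1, Col4a1 and Col4a4) gave a summed ratio to control of 0.538 (0.197 to 1.18), and none of 9 genes was past the rule, where 2.0% of all genes were higher and 0.981% lower. For Col1a2, Col3a1 and Col6a3, at 0 there and 40, 29 and 32 in control, no difference was detectable at this depth. The combination with anti-PD-1 held 4.94-fold the collagen sum of AZD/MK (2.23 to 13.6). Of 3 genes with enough counts 1, Col1a2, was past the rule, where 10.7% of all genes were higher and 3.83% lower. All 3 had enough counts only through the AZD/MK/PD-1 pool, so nothing is read from that count, and among the 157 genes with 20 counts in the AZD/MK pool, none of them a collagen, 7.01% were higher and 43.9% lower.

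KS100 and KS100 with anti-PD-1 had higher collagen sums than control on few counts. The sums were 4.15-fold control (3.09 to 5.47) with KS100 and 6.49-fold (4.69 to 8.78) in the KS100/PD-1 pool, and with library totals 2.96 and 4.25. The expected background, 25.8 of 55 and 30.1 of 45 counts, is a large share of both, and its part in the sums was not tested. In the KS100 pool 2 of 9 genes were higher, where 5.01% of all genes were higher and 1.45% lower. These were Col1a2 on 11 counts, 13.7-fold (6.35 to 27.3), and Col6a3 on 5, 7.80-fold (2.37 to 20.2), with expected background counts of 0.921 and 0.887. In the KS100/PD-1 pool 4 of 9 were higher, where 4.84% of all genes were higher and 2.35% lower. Col1a1 on 6 counts was at 5.40 (1.94 to 12.1), Col6a3 on 4 at 11.9 (3.06 to 33.6), Col3a1 on 3 at 9.86 (1.92 to 31.8) and Col4a2 on 3 at 11.4 (2.21 to 37.5), with expected background of 0.568, 1.04, 0.850 and 0.573 counts. With library totals 1 of 9 was higher, where 3.06% of all genes were. Only Col6a3 was past the rule in both KS100 pools, and between those pools no collagen had enough counts (4.31% of the 209 genes that had were higher and 34.0% lower). The antibody's ratio for the sum within KS100 was 1.56 (1.03 to 2.36). Transmembrane collagens, at 6 counts in each of the anti-PD-1 and KS100 pools, 7 in the KS100/PD-1 pool and 4 in control, made up 10.9% of KS100 collagen counts (4.11 to 22.3) and 0.605% of control collagen counts (0.165 to 1.54). The 11 genes at 0 in anti-PD-1 as in control tumours held 3 counts with KS100 and 7 in the KS100/PD-1 pool, against expected background of 6.02 and 7.04. These 11 are themselves among the 8744 genes that gave the background, so the comparison is not independent of it. Fibroblast genes other than collagens stood at 1.18-fold (0.751 to 1.76) and 1.13-fold (0.579 to 1.97) of control in the KS100 and KS100/PD-1 pools. Relative to anti-PD-1 tumours, the KS100/PD-1 sum was 1.13 (0.821 to 1.51), but 0.736 (0.535 to 0.987) with library totals and 1.73 (1.22 to 2.37) without Col1a1, so no direction is given. None of 14 genes was past the rule, where 3.68% of all genes were higher and 2.69% lower, and with library totals 1 was lower, where 6.31% of all genes were.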

How the data were processed

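Counts were measured in 6 pooled tumour libraries. The 3′-end libraries (QuantSeq 3′ FWD) were, per the labels' protocols, sequenced by MiSeq with 151-cycle single reads. The deposited file holds whole-number read counts per Ensembl gene. The submitters' processing notes name HISAT2 2.1.0, bcl2fastq, HTSeq and GRCm38. The strand setting, annotation release and handling of multiply matching reads were not stated in any source used here. Spike-in names (92, all at 0) were left out. GENCODE M21 annotated 42462 of 43629 genes.

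The additive model of arm and antibody was fitted with edgeR 4.0.16 in R 4.3.3 (TMM on the 4912 genes kept by filterByExpr, glmQLFit and glmQLFTest, 2 residual degrees of freedom), with Benjamini-Hochberg adjusted p under 0.05 as threshold. Its SE is the log2 change divided by the square root of F. DESeq2 1.42.0 was an alternative. Ratios between 2 pools (9 pairs, unreplicated, so without p-values) carry 95% exact conditional (Clopper-Pearson) intervals from scipy 1.17.1. Log2 medians of lists use a prior count of 2. Both procedures were checked on simulated data. The edgeR fit recovered 44 of 100 genes given an antibody log2 change of 3 in either direction and 20 of 100 given 2, with 0 false calls. The rule of size, on counts with counting error only, recovered 100 of 100 genes raised 4-fold and 85 of 100 lowered 4-fold, with 4 false calls. Every collagen with at least 20 counts in a pool was to be named. From other lists, up to 4 of the members with the most counts were to be named; genes past the rule were added after their values were seen. Members and lists were chosen with earlier results of these data known. Totals ran from 25521 to 1591673 counts per pool, and 3 shallow pools limit precision. The growth factor list is not reported here.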

Additional observations from a re-analysis of the deposited data

How the results depend on the processing

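Of the 27 collagen results recomputed (3 counts of genes called by edgeR, 9 counts past the rule of size, 9 summed ratios and 6 shares), no summed ratio changed direction where its interval excluded 1. No paired analysis was possible because each treatment has 1 library and so no replicate numbers to pair, and the antibody was compared within arms by the additive model itself. Of collagen genes, edgeR called 1 of 9, Col1a2, for the antibody without both KS100 pools (0.104% of all genes). For KS100 it called 2 of 39 with no filter (6.44% of all genes) and 1 of 14 without both AZD/MK pools (4.46% of all genes). The settings without both pools of an arm, and the sums without 3 genes below, were chosen after seeing the data. With all pools thinned to the shallowest, genes past the rule numbered 1 for anti-PD-1 over control, 0 for AZD/MK/PD-1, KS100 and KS100/PD-1 over control, 1 for AZD/MK/PD-1 over anti-PD-1 and 0 over AZD/MK, where fewer counts remain. With no minimum count they numbered 5, 7 and 14 for AZD/MK/PD-1, KS100 and KS100/PD-1 over control, and 9 for KS100/PD-1 over anti-PD-1. With library totals they numbered 1 for KS100/PD-1 over control, 7 for AZD/MK/PD-1 over anti-PD-1 and 1 for KS100/PD-1 over anti-PD-1, and without mitochondrial genes and Gm42418 in the totals 2 for KS100/PD-1 over control and 1 over anti-PD-1. With no minimum, a gene at 0 in control can pass on 1 count in a shallow pool. Shares of all genes were not computed with thinning, with no minimum or without mitochondrial genes in the totals. Nothing particular to collagens is read from the counts under those settings. With library totals the sums were 1.58, 2.96 and 4.25 for AZD/MK/PD-1, KS100 and KS100/PD-1 over control, and 0.274 and 0.736 for AZD/MK/PD-1 and KS100/PD-1 over anti-PD-1. Without Col1a1 the sums were 3.88 for anti-PD-1 over control, 0.713 for AZD/MK/PD-1 over anti-PD-1 and 1.73 for KS100/PD-1 over anti-PD-1. Without Col1a1, Col1a2 and Col4a1 they were 2.998, 0.604 and 2.62, and 1.81 for AZD/MK/PD-1 over control. The collagen share was 0.136% in anti-PD-1 tumours and 0.0349% in the control pool without Col1a1, and 0.0974% in the AZD/MK/PD-1 pool without mitochondrial genes and Gm42418 in the total. Apart from Col1a1 as the gene with most counts, fewer counts under thinning, and the scaling itself, the cause of these moves was not tested.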

Other observations

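Genes of collagen breakdown and collagen receptors had summed ratios nearer to 1 than the collagens with anti-PD-1. Of 14 breakdown genes 6 had enough counts and 1 was higher in anti-PD-1 tumours than in control, where 2.91% of all genes were. This was the macrophage elastase gene Mmp12, on 25 against 11 counts at 3.60-fold (1.71 to 8.10), with enough counts only through anti-PD-1 tumours. The breakdown list summed to 1.35-fold (1.22 to 1.49). The inhibitor genes Timp3, at 1.90-fold (1.63 to 2.22), and Timp2, at 0.794 (0.664 to 0.945), were not past the rule. Of 10 receptor genes 4 had enough counts and none was past the rule, at a summed 1.51-fold (1.35 to 1.69), with the collagen receptor kinase genes Ddr1 at 1.83 (1.53 to 2.19) and Ddr2 at 1.28 (1.03 to 1.58). Members past the rule here were named after their values were seen.

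In the AZD/MK/PD-1 pool 2 of 4 receptor genes were higher than in control, where 15.8% of all genes were, the integrin chain gene Itgb1, on 134 against 178 counts at 5.96-fold (4.73 to 7.498), and Ddr2 at 2.47-fold (1.82 to 3.30). Of 5 breakdown genes 2 were higher, Mmp14, a membrane-bound collagenase gene, at 3.48-fold (2.01 to 5.86) and Timp2 at 2.11-fold (1.68 to 2.62), against the same 15.8%. The median log2 ratio of the 5 was -0.85, with Timp3 at 0.550-fold (0.336 to 0.857). The cartilage regulator gene Sox9 had 17 counts in anti-PD-1 tumours, 25 in the AZD/MK/PD-1 pool, 7 in the KS100/PD-1 pool and 35 in control. It was 5.65-fold control (3.24 to 9.72) in the AZD/MK/PD-1 pool and 19.1-fold (7.15 to 43.6) in the KS100/PD-1 pool. Of the other genes of its list, Acan, Bglap, Ibsp and Matn1 were at 0 in every pool, and Matn3, Comp and Sp7 had 7, 1 and 1 counts over all pools.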
